A study of Mus musculus with 10 samples.

Results

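The PPARA fat metabolism genes described here are Ppara itself, its coactivator Ppargc1a, and 6 genes that PPARA is known to switch on during fasting: Pdk4, Angptl4, Plin4, Cpt1a, Cyp4a10 and Cyp4a14. They were followed in kidneys of mice at an early time after the opposite kidney had been clamped. Every probe set that the platform annotation maps to one of these 8 symbols was taken, which gave 15 of the 22690 probe sets of the array. Of these 15, 14 were bright enough to be tested, and 1 of Angptl4 was too dim. The genes were chosen with contralateral-to-normal differences of these arrays in view, so those differences are given for them as descriptions, with a standard error and without p-values.

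All mice were male C57/BLACK6, 7 weeks old, weighed about 20 g and had free access to food. In the injured mice, under diethylether, the vessels of the left kidney were clamped for 45 min, and the contralateral kidney, which was never clamped, was removed 3 h after reperfusion. They received intraperitoneal 4-thiouridine (s4U, 200 µM) with 34 µCi of tritiated cytidine in 1 ml of 0.9% NaCl at 1 h and at 2 h. Normal mice had no operation, received the same injections at 0 h and at 1 h, with removal of the kidneys at 2 h. A sham operation is not described in the labels, so anaesthesia, surgery and the timing of the injections cannot be told apart from the effect of the distant injury. Each kidney group was measured as total RNA (2 arrays), amplified total RNA (2 arrays) and newly transcribed RNA (1 array), the last being RNA that had taken up s4U in the living animal. The labels' protocols mention linear amplification for all groups. The labels call the arrays biological replicates, and they do not say which arrays share a mouse.

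PPARA is a nuclear receptor that is activated by fatty acids and binds DNA together with a retinoid X receptor. It is best known from liver and heart, and in kidney it is found mainly in the proximal tubule, a segment that burns fatty acids for its transport work. Ppargc1a encodes PGC-1α, a coactivator of PPARA and of other receptors that drive mitochondrial genes. Among the targets, PDK4 holds back pyruvate oxidation, ANGPTL4 is a secreted inhibitor of lipoprotein lipase, and perilipin 4 coats lipid droplets. CPT1A carries out the committed step of fatty acid entry into mitochondria, and the Cyp4a enzymes hydroxylate the end of fatty acids, arachidonic acid included. Several of these targets, Pdk4 and Angptl4 among them, also respond to glucocorticoids and to other signals.

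RefSeq promoter sequence (build GRCm38.p6) was at hand for 5 of the 8 genes, and 3 of these windows are shown, because Pdk4 had the largest difference in total RNA, Ppara changed order between preparations and Cpt1a holds the only receptor half-site found. Each is the 250 bases before the annotated start, printed 5′ to 3′ on the strand of the gene. Capitals mark a match to CCAAT, to TGACG or to the nuclear receptor half-site AGGTCA, on either strand. Pdk4 lies at chr6:5496279-5496528 on the minus strand, Ppara at chr15:85735526-85735775 on the plus strand, and Cpt1a at chr19:3323051-3323300 on the plus strand.
Pdk4: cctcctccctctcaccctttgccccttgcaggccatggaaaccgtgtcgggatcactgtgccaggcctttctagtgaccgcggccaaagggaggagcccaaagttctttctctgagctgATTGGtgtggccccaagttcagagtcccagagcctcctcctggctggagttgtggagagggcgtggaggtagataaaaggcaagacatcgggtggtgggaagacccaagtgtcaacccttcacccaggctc
Ppara: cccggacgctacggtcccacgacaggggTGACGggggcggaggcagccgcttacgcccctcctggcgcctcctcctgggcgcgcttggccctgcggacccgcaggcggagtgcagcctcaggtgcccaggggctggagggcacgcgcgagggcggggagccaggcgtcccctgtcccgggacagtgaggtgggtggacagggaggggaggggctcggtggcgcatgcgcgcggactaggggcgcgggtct
Cpt1a: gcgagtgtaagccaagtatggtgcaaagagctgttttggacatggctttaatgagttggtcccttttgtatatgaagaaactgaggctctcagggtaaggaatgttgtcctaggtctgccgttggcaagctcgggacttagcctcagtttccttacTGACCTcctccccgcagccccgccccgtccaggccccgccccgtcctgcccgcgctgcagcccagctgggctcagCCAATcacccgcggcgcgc
A match begins 131 bases before the start in Pdk4 (CCAAT, as its reverse complement), 222 bases before it in Ppara (TGACG), and 94 and 19 bases before it in Cpt1a (AGGTCA as its reverse complement, and CCAAT). The windows of Plin4 and Ppargc1a hold a CCAAT 18 bases and a TGACG 49 bases before the start. Over all 32851 windows of this length, 33.8% hold CCAAT, 17.8% hold TGACG and 14.02% hold AGGTCA. The element that PPARA and its partner are known to bind, 2 copies of AGGTCA separated by any 1 base, was in 0.0335% of windows and in none of the 5. The forkhead motif GTAAACA was in 3.17% of windows and in none of the 5. A match is a run of letters and not a shown binding site, and its lack in these short windows says nothing on the factors.

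The arrays differed in brightness and in 3' bias. The median deposited intensity was 40.4 and 41.6 in contralateral total RNA against 55.85 and 59.7 in normal total RNA, and 26.6 and 49.8 in contralateral amplified RNA against 41.2 and 43.45 in normal amplified RNA. For newly transcribed RNA it was 18.6 in the contralateral and 70.25 in the normal kidney. The ratio of 3' to 5' signal of the Gapdh control probe sets was 0.938 to 1.12 in total RNA, 4.21 to 6.23 in amplified RNA, and 68.9 in contralateral against 12.7 in normal newly transcribed RNA. Those last 2 arrays thus differ in brightness and 3' bias as well as in kidney, and every newly transcribed difference below carries that. Markers of the kidney's proximal tubule were measured on every array: all 11 proximal tubule markers that matched a probe set were tested, and their summed normalized signal was 27790 and 28250 in contralateral against 29270 and 28250 in normal total RNA, 24700 and 25240 in contralateral against 26350 and 25780 in normal amplified RNA, and 16870 against 20340 on the newly transcribed arrays. Below, a level is a normalized log2 signal, that is log2(intensity + 11.8) after quantile normalization, and a difference is contralateral minus normal on that scale. The scale understates the change of dim genes, and levels of different probe sets are not compared.

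**Figure D1:**
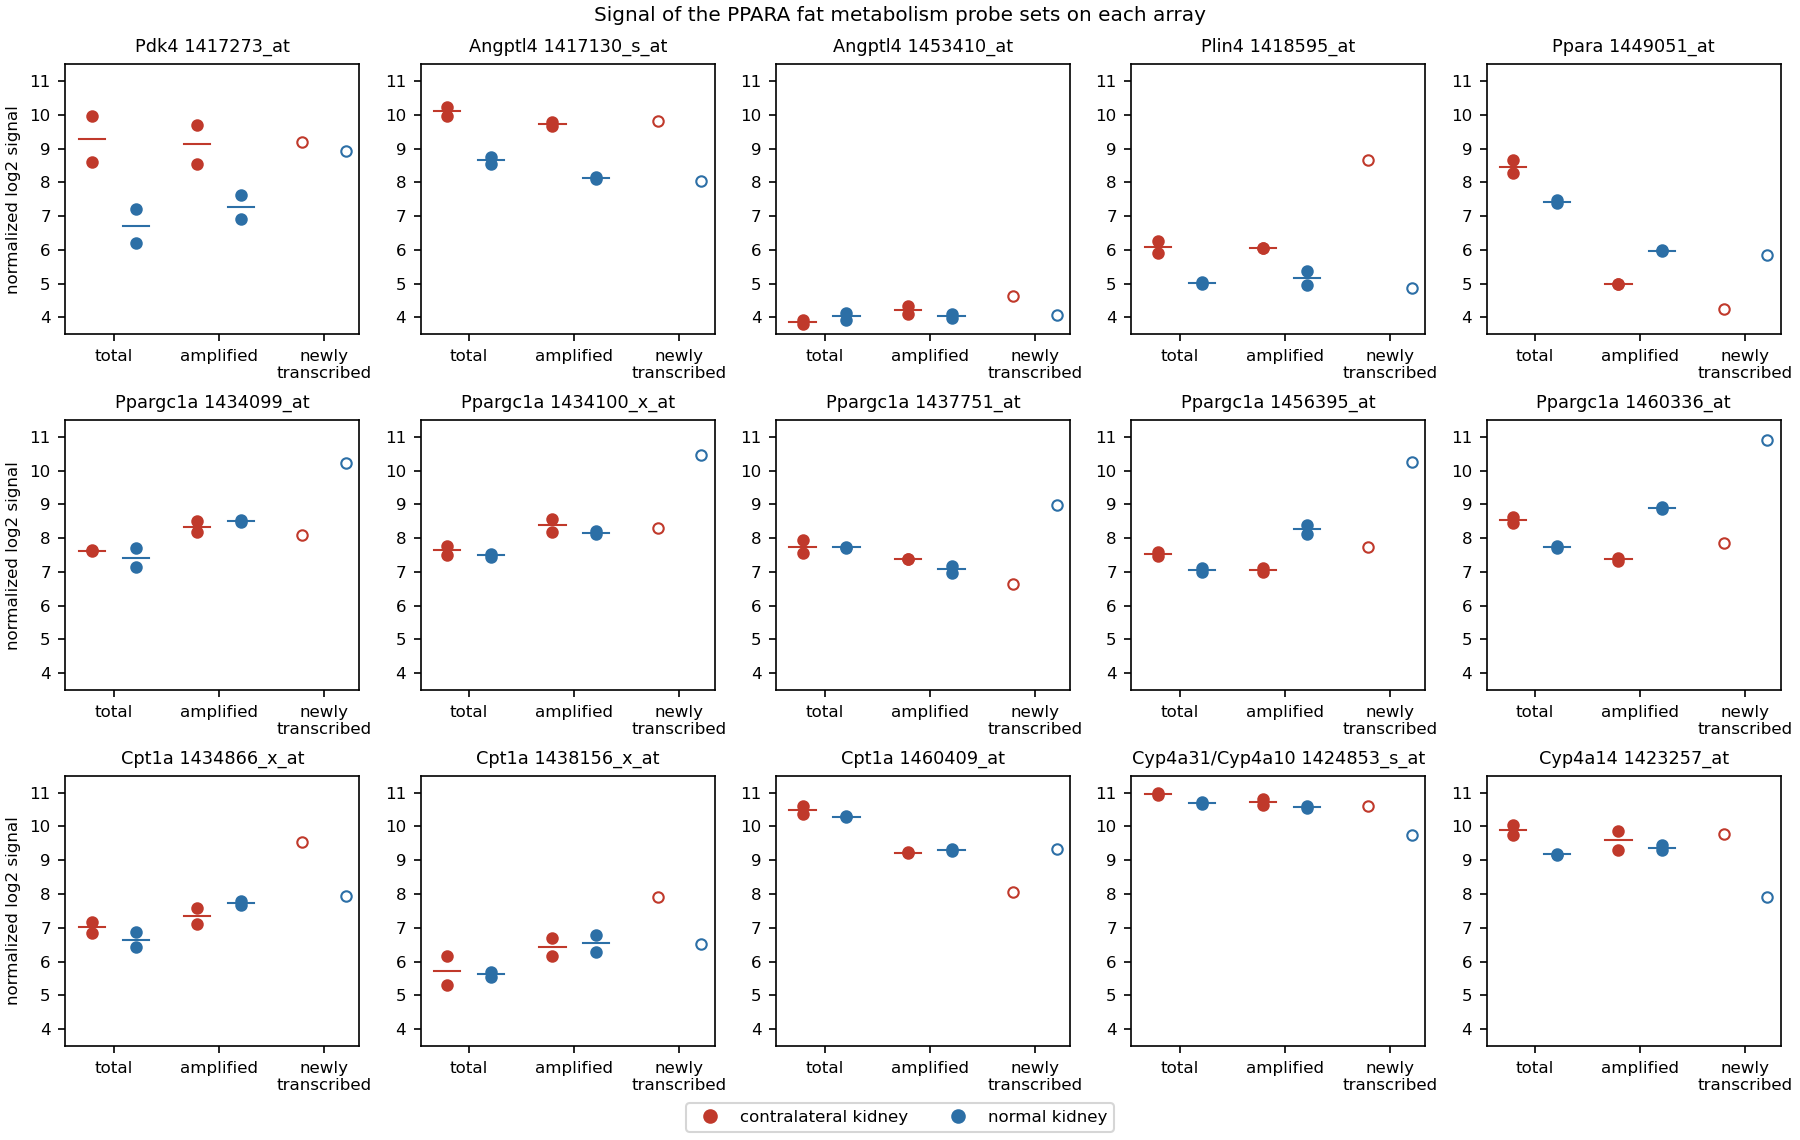
Normalized log2 signal (y axis) of each of the 15 probe sets on each array, in total, amplified total and newly transcribed RNA (x axis). Points are arrays (red, contralateral kidney; blue, normal kidney), bars are means of 2 arrays, and open circles mark groups of 1 array. Angptl4 (1417130_s_at), Pdk4 and Plin4 lie higher in contralateral kidneys in all 3 preparations, while Ppara changes order between total RNA and the other preparations.

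For Ppara, the receptor, total and amplified RNA disagreed in direction. In total RNA its level was 8.65 and 8.28 in contralateral kidneys and 7.39 and 7.47 in normal kidneys, a difference of 1.04 ± 0.168 (SE, n = 2 each). In amplified RNA it was 4.98 and 4.98 in contralateral kidneys and 5.99 and 5.97 in normal kidneys, a difference of -1.001 ± 0.168 (SE, n = 2 each). The groups did not overlap in either preparation, and the contralateral arrays were the higher pair in total RNA and the lower pair in amplified RNA. The deposited intensities show how dim the gene became: 325.0 and 274.2 in contralateral against 189.7 and 205.6 in normal total RNA, but 12.5 and 22 in contralateral against 50.8 and 52.4 in normal amplified RNA. The newly transcribed arrays followed the amplified ones, with a level of 4.25 in the contralateral and 5.84 in the normal kidney, a difference of -1.60. Since the amplified and newly transcribed contralateral intensities lie near or under the added constant, these differences depend on it: over the alternatives tried the amplified one ran between -1.35 and -0.55 and the newly transcribed one between -2.52 and -0.75.

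The lower signal of Ppara in amplified than in total RNA was a result that the choice of genes did not use. Averaged over both kidneys, amplified minus total RNA was -2.47 ± 0.414 for Ppara (limma, adjusted p = 0.00134, lower in both kidneys). The difference was -3.49 in contralateral kidneys, whose amplified intensities lie near the added constant, and -1.45 in normal kidneys. The part of 3' bias and array brightness in it was not tested. From amplified to newly transcribed RNA the difference was -0.43 ± 0.507 (limma, adjusted p = 0.555).

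Ppargc1a, the coactivator, had 5 probe sets, and they fell into 2 patterns. Probe set 1460336_at read 8.62 and 8.45 in contralateral and 7.76 and 7.72 in normal total RNA, a difference of 0.79 ± 0.117 (SE, n = 2 each). In amplified RNA it read 7.43 and 7.33 in contralateral and 8.92 and 8.86 in normal kidneys, a difference of -1.51 ± 0.117 (SE, n = 2 each). Like Ppara, it was thus higher in contralateral kidneys in total RNA and lower there in amplified RNA, with no overlap in either. Probe set 1456395_at did the same, with a difference of 0.48 ± 0.136 in total RNA and of -1.20 ± 0.136 in amplified RNA. Its deposited total RNA intensities overlapped, at 141.8 and 167.7 in contralateral against 143.1 and 161 in normal kidneys. Levels of this probe set in amplified RNA were 7.01 and 7.12 in contralateral against 8.14 and 8.38 in normal kidneys. The remaining 3 probe sets showed little difference in either preparation. Their differences ran from 0.02 to 0.20 in total RNA, where contralateral and normal levels overlapped in all 3, and from -0.16 to 0.31 in amplified RNA, where 1437751_at alone did not overlap (7.40 and 7.38 in contralateral against 6.96 and 7.19 in normal kidneys).

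In newly transcribed RNA the 5 probe sets of Ppargc1a went the same way. The contralateral array read 8.10, 8.29, 6.65, 7.74 and 7.85 for 1434099_at, 1434100_x_at, 1437751_at, 1456395_at and 1460336_at, against 10.24, 10.47, 8.99, 10.26 and 10.91 on the normal array. These are differences of -2.13, -2.18, -2.34, -2.52 and -3.06. Every probe set of the coactivator was therefore dimmer on the contralateral array, with 1 array per kidney and no replicate check. The high value belongs to the normal newly transcribed array: in normal kidneys newly transcribed minus amplified RNA was 1.73 to 2.30 over the 5 probe sets, and in contralateral kidneys it was -0.74 to 0.67. Over the 10 arrays, which share preparations and hence 3' bias, the probe sets correlated with Pearson's r between 0.451 and 0.957, and the closest pair was 1456395_at with 1460336_at. Where on the transcript each probe set lies was not given in the sources used here.

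Pdk4, the kinase that holds back pyruvate oxidation, had the largest contralateral difference among the 14 tested probe sets in total RNA and in amplified RNA. Its level was 9.97 and 8.60 in contralateral and 7.20 and 6.20 in normal total RNA, a difference of 2.59 ± 0.476 (SE, n = 2 each), or 6.01-fold on this scale. Amplified RNA gave 9.71 and 8.54 in contralateral and 7.62 and 6.92 in normal kidneys, a difference of 1.86 ± 0.476 (SE, n = 2 each), or 3.63-fold. The groups did not overlap, but its arrays scattered, with an SD over 2 arrays of 0.97 in contralateral and 0.71 in normal total RNA and of 0.83 in contralateral and 0.50 in normal amplified RNA, and its standard error was the largest of the 14. Leaving out 1 array at a time moved the total RNA difference between 1.91 and 3.28, and the amplified one between 1.27 and 2.43. In newly transcribed RNA the levels were 9.21 in the contralateral and 8.92 in the normal kidney, a difference of 0.28. The normal kidney's newly transcribed level was 2.23 above its own total RNA, whereas the contralateral one was -0.08 from its total RNA. On the deposited scale the contralateral newly transcribed array read 254.0 and the normal one 798.4, so the sign of 0.28 rests on setting the 2 arrays to a common scale, and it ran from 0.26 to 0.29 over the alternatives.

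Angptl4 gave the most even contralateral difference of the 8 genes on the normalized scale. Probe set 1417130_s_at read 10.24 and 9.97 in contralateral and 8.55 and 8.76 in normal total RNA, a difference of 1.45 ± 0.126 (SE, n = 2 each), or 2.73-fold. Amplified RNA gave 9.79 and 9.67 in contralateral and 8.15 and 8.09 in normal kidneys, a difference of 1.61 ± 0.126 (SE, n = 2 each), or 3.05-fold. Newly transcribed RNA read 9.83 in the contralateral and 8.04 in the normal kidney, a difference of 1.79. The contralateral arrays of this secreted lipase inhibitor lay above the normal ones in total and in amplified RNA without overlap. On the deposited scale the contralateral newly transcribed array read 413.1 and the normal one 451.3, so the sign of 1.79 rests on setting the 2 arrays to a common scale. Total minus amplified difference was -0.16 ± 0.178. Its second probe set, 1453410_at, had deposited intensities of 1.9 to 7.6 on all arrays and levels of 3.80 to 4.65, too dim to be tested.

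Plin4, which encodes a lipid droplet coat protein that is abundant in fat cells, was dim in kidney and higher in contralateral kidneys. Its level was 5.92 and 6.27 in contralateral and 5.002 and 5.04 in normal total RNA, a difference of 1.07 ± 0.202 (SE, n = 2 each). Amplified levels were 6.07 and 6.07 in contralateral and 5.37 and 4.97 in normal kidneys, a difference of 0.90 ± 0.202 (SE, n = 2 each). The newly transcribed level was 8.68 in the contralateral and 4.86 in the normal kidney. That difference of 3.81 was the largest of the 14 probe sets in this preparation. With the added constant varied it ran between 2.73 and 4.47.

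**Figure D2:**
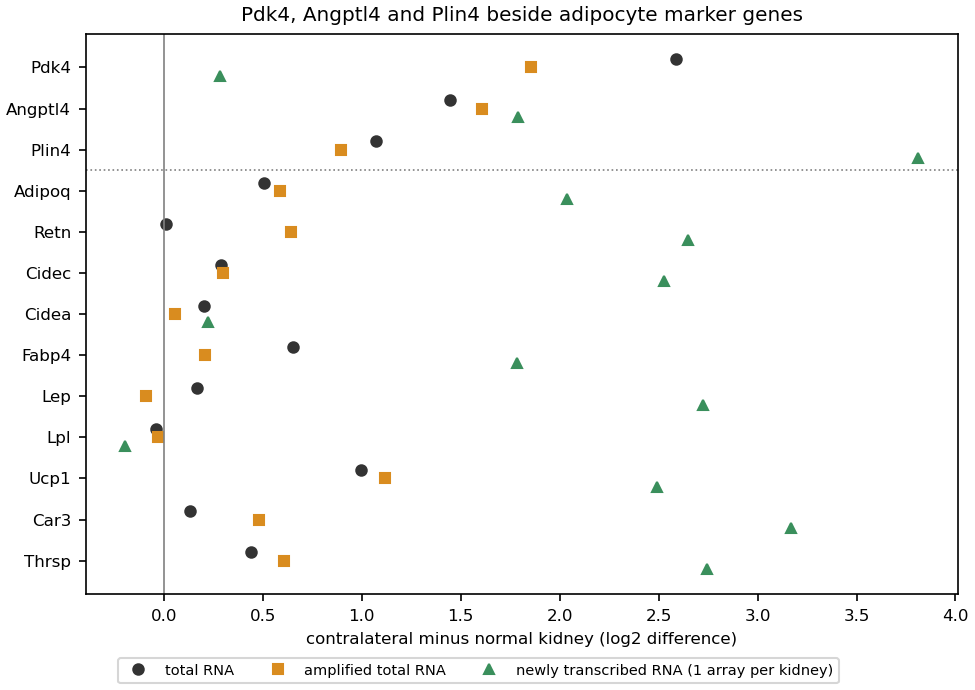
Contralateral minus normal difference (x axis, log2) of Pdk4, Angptl4 and Plin4 and of 10 adipocyte marker genes (y axis), by preparation. In newly transcribed RNA Plin4 stands at 3.81 and 8 of the 10 markers between 1.78 and 3.17, while Pdk4 stands at 0.28.

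Most markers of fat cells, and some of other cell types, moved with Plin4 on the newly transcribed arrays. Of 12 adipocyte markers listed, 10 matched a probe set and 8 of these were tested. Past a log2 difference of 1 on the newly transcribed arrays were 6 of the 8, all higher in the contralateral kidney, where 14.3% of all tested probe sets were past it as higher and 18.5% as lower. Among them were Adipoq (adiponectin, 2.04), Retn (resistin, 2.65), Car3 (3.17) and Ucp1 (the uncoupling protein of brown fat, 2.49). Not past it were Cidea (0.22) and the lipoprotein lipase gene Lpl (-0.19). Lpl differed by -0.04 in total and by -0.03 in amplified RNA. In total RNA limma called 0 of the 8 (2 at an unadjusted p under 0.05) and in amplified RNA 1 of the 8 (3 unadjusted), which was Thrsp, where 1.58% of all were called higher in total and 4.16% in amplified RNA. The median difference of the 8 was 0.32 in total, 0.53 in amplified and 2.26 in newly transcribed RNA. The summed signal of the 10 was 5332 and 5653 in contralateral against 5362 and 4685 in normal total RNA, 5415 and 6039 in contralateral against 5568 and 5234 in normal amplified RNA, and 8178 against 5422 on the newly transcribed arrays. None of the 10 was at 0 on any array. Leukocyte markers summed to 1324 and 1121 in contralateral against 1234 and 1415 in normal total RNA, 1977 and 1526 in contralateral against 1381 and 1408 in normal amplified RNA, and 2507 against 1192 on the newly transcribed arrays, where 3 of 8 tested were past the fold as higher and 0 as lower. Of 7 skeletal muscle and adrenal markers on the array 1 was bright enough to be tested, and the sum of the 7 was 150.6 in contralateral against 53.59 in normal newly transcribed RNA, with 68.03 to 89.94 in contralateral and 61.9 to 79.26 in normal kidneys in the other preparations. Both sums differed by a larger ratio on those arrays than the adipocyte sum, while 2 of 11 proximal tubule markers were past the fold as lower and 0 as higher. By the median difference of tested markers on those arrays the order was another: 2.26 for adipocytes, 0.80 for leukocytes and -0.36 for proximal tubule. The muscle and adrenal sum is low, so its ratio is uncertain. The part of these markers in the difference of Plin4, of Angptl4 and of the other genes that fat cells also express was not tested. In bulk RNA of a whole organ, more cells of a type and more RNA per cell cannot be told apart.

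Cpt1a, the gate of mitochondrial fatty acid import, had 3 probe sets that disagreed with each other. Probe set 1460409_at read 10.61 and 10.37 in contralateral and 10.30 and 10.27 in normal total RNA, a difference of 0.21 ± 0.107 (SE, n = 2 each). In amplified RNA it read 9.21 and 9.24 in contralateral and 9.35 and 9.29 in normal kidneys, a difference of -0.09 ± 0.107 (SE, n = 2 each). On the newly transcribed arrays it read 8.06 in the contralateral and 9.32 in the normal kidney, a difference of -1.27. The other 2 probe sets, 1434866_x_at and 1438156_x_at, carry the suffix of probe sets that can also bind other transcripts. They had differences of 0.36 ± 0.199 and 0.11 ± 0.285 in total RNA and of -0.38 ± 0.199 and -0.10 ± 0.285 in amplified RNA, all within 2 standard errors of 0. All 3 probe sets were thus positive in total and negative in amplified RNA on the normalized scale. There 1460409_at lay above the normal arrays in total and below them in amplified RNA without overlap, by small amounts in both. Its deposited intensities were 1356.7 and 1254.6 in contralateral against 1489 and 1476.8 in normal total RNA. In amplified RNA they overlapped, at 442.8 and 813.9 in contralateral against 704.7 and 696.6 in normal kidneys. Its order in both preparations thus rests on setting the arrays to a common scale. Newly transcribed RNA had the 2 x_at probe sets higher in the contralateral kidney, by 1.58 and 1.39, where 1460409_at was lower. Their deposited intensities were lower on the contralateral array (329 against 424.6 for 1434866_x_at, 95.9 against 140.7 for 1438156_x_at), so this direction rests on setting the 2 arrays to a common scale. Over the 10 arrays the 2 x_at probe sets correlated with each other (r = 0.936) and inversely with 1460409_at (r = -0.887 and -0.923), so what Cpt1a did in newly transcribed RNA is not settled by these arrays.

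The same split showed between preparations, in tests that the choice of genes did not use. Probe set 1460409_at was lower in amplified than in total RNA, by -1.12 ± 0.222 (limma, adjusted p = 0.00338), and lower in both kidneys (-1.27 in contralateral, -0.97 in normal). Probe set 1438156_x_at was higher in amplified than in total RNA, by 0.82 ± 0.292 (limma, adjusted p = 0.0487), with 0.72 in contralateral and 0.92 in normal kidneys. Probe set 1434866_x_at was higher in newly transcribed than in amplified RNA, by 1.20 ± 0.369 (limma, adjusted p = 0.0347), with 2.18 in contralateral and 0.22 in normal kidneys. That last call was lost without contralateral amplified replicate 1, without contralateral amplified replicate 2 and without the contralateral newly transcribed array, and the difference ran from 0.41 to 2.02 over all alternatives. The call of 1438156_x_at held in 8 of 18 alternatives and was lost without contralateral total replicate 1, either normal total array, contralateral amplified replicate 1 or normal amplified replicate 1, among others.

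On the normalized scale, the contralateral arrays of the Cyp4a fatty acid hydroxylases lay above the normal ones in total RNA, without overlap. Cyp4a14 read 10.04 and 9.75 in contralateral and 9.15 and 9.19 in normal total RNA, a difference of 0.72 ± 0.169 (SE, n = 2 each). In amplified RNA it read 9.87 and 9.31 in contralateral and 9.29 and 9.45 in normal kidneys, where the groups overlapped and the difference was 0.22 ± 0.169. On the newly transcribed arrays it read 9.78 in the contralateral and 7.91 in the normal kidney, a difference of 1.87. Cyp4a10 is covered only by 1424853_s_at, which the annotation pairs with Cyp4a31 as well, so its signal cannot be given to either gene. This shared probe set read 10.93 and 10.99 in contralateral and 10.65 and 10.74 in normal total RNA, a difference of 0.27 ± 0.0932. Its deposited total RNA intensities overlapped, at 1724.4 and 2019 in contralateral against 1936.7 and 2018.9 in normal kidneys. The separation of this probe set thus rests on setting the arrays to a common scale. In amplified RNA the difference was 0.15 ± 0.0932, and on the newly transcribed arrays the levels were 10.61 in the contralateral and 9.76 in the normal kidney, a difference of 0.85. The deposited intensities of both probe sets were lower on the contralateral newly transcribed array (397.8 against 412.0 for Cyp4a14, 806.3 against 1311.2 for the shared one), and the positive differences follow from setting the 2 arrays to a common scale.

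**Figure D3:**
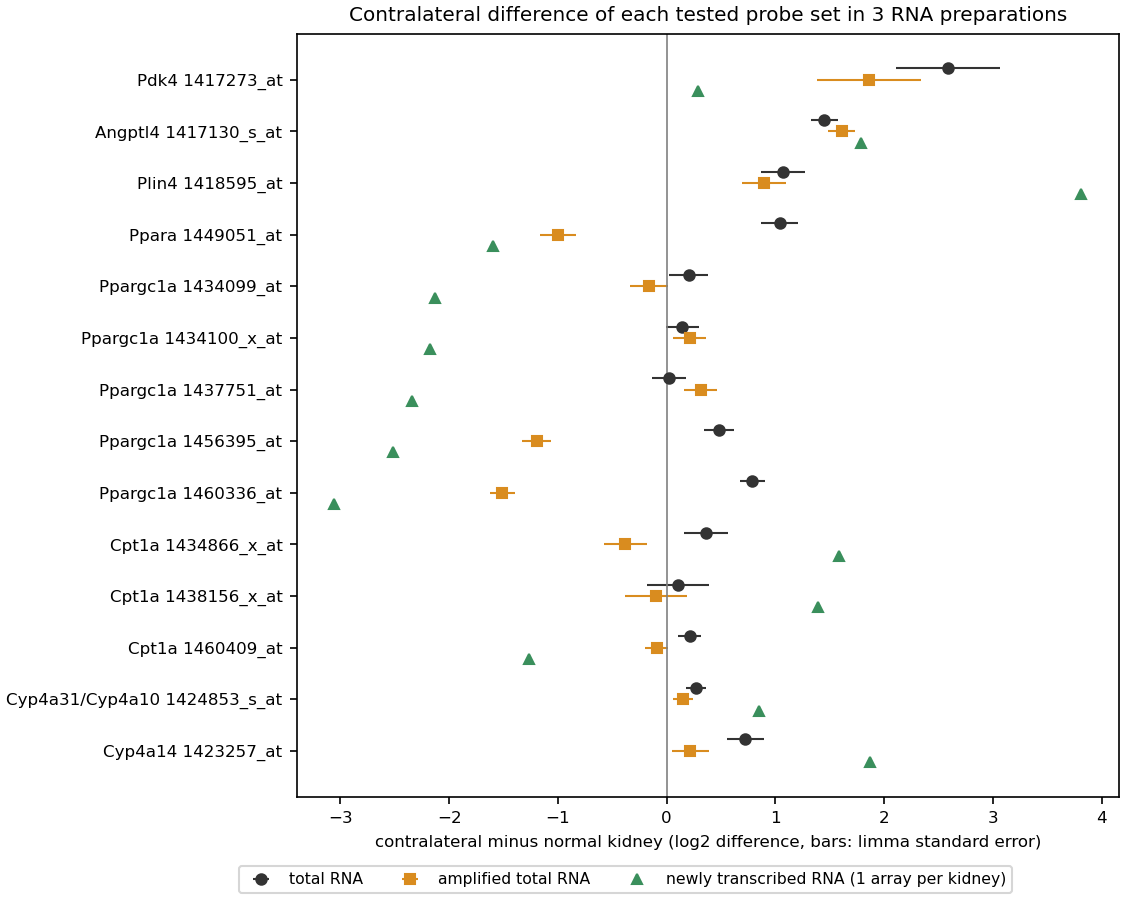
Contralateral minus normal difference (x axis, log2) of the 14 tested probe sets (y axis) in total RNA (circles), amplified total RNA (squares) and newly transcribed RNA (triangles). Bars are limma standard errors, and the newly transcribed values have none. On the normalized scale all 14 lie above 0 in total RNA, and Ppara and 2 probe sets of Ppargc1a lie at -1.001 or below in amplified RNA.

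Set side by side on the normalized scale, all 14 probe sets had a positive contralateral difference in total RNA. Their median was 0.42 against -0.02 over all 13575 tested probe sets. Several of these signs rest on setting the arrays to a common scale. The mean deposited intensity in total RNA was lower in contralateral kidneys for every probe set of Cpt1a and for the shared Cyp4a probe set. It was lower too for Ppargc1a 1434099_at, 1434100_x_at and 1437751_at (149.3 and 212.8 in contralateral against 237.5 and 247.8 in normal kidneys for the last). In amplified RNA 7 were positive and 7 negative, with a median of 0.03 against 0.02 over all, and in newly transcribed RNA 7 and 7, with a median of -0.49 against 0.00 over all. In total RNA 5 of the 14 passed the fit's threshold, all higher (Pdk4, Angptl4, Plin4, Ppara and Ppargc1a 1460336_at), where 1.58% of all tested probe sets were called higher and 0.339% lower. In amplified RNA 3 passed as higher (Pdk4, Angptl4 and Plin4) and 3 as lower (Ppara, Ppargc1a 1456395_at and 1460336_at), where 4.16% of all were called higher and 6.19% lower. On the newly transcribed arrays 5 were past a difference of 1 as higher and 7 as lower, against 14.3% and 18.5% of all. These contrasts chose the genes, so the counts are printed beside the background and nothing is read from them. Just inside the threshold on the adjusted p in total RNA stood Plin4 with a difference of 1.07, and just outside it Cyp4a14 with 0.72.

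Which of these calls were made depended on single arrays. In total RNA the count of 5 was 1 without contralateral total replicate 1, 3 without normal total replicate 1 and 1 without normal total replicate 2. Plin4 was no longer called without any 1 of the 4 total RNA arrays, Pdk4 without contralateral replicate 1 or normal replicate 2, Ppara without contralateral replicate 1 or either normal array, and Ppargc1a 1460336_at without contralateral replicate 1 or normal replicate 2. Angptl4 was called in total RNA in all 21 alternatives. In amplified RNA the call of Pdk4 was lost without contralateral amplified replicate 1 and without either normal amplified array, and that of Plin4 without either contralateral array and without normal amplified replicate 2. Ppara, Angptl4 and the 2 probe sets of Ppargc1a kept their amplified RNA calls in all 21 alternatives.

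On the normalized scale, contralateral and normal arrays did not overlap for 9 of the 14 probe sets in total RNA, with the contralateral arrays above in all 9. With 2 arrays a group this is common: 46.6% of all tested probe sets did not overlap in total RNA, in either direction. In amplified RNA 5 of the 14 lay above and 5 below without overlap, where 54.9% of all did not overlap.

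The contralateral effect in total RNA minus that in amplified RNA was 2.04 ± 0.237 for Ppara, 1.68 ± 0.193 for Ppargc1a 1456395_at and 2.30 ± 0.166 for Ppargc1a 1460336_at. For Cpt1a 1434866_x_at it was 0.74 ± 0.282, for Pdk4 0.73 ± 0.673, for Cyp4a14 0.50 ± 0.238 and for Plin4 0.18 ± 0.286. Both effects chose the genes, so these are descriptions without a test. The first 3 were past the fit's threshold, where 3.81% of all tested probe sets passed with a positive and 0.648% with a negative value, and nothing is read from that count. In the coactivator, amplified minus total RNA had opposite signs in the 2 kidneys: -1.15 in contralateral and 1.15 in normal kidneys for 1460336_at, and -0.48 in contralateral and 1.20 in normal kidneys for 1456395_at. The 3' bias and brightness of the arrays given above moved with preparation, and their part in this disagreement was not tested.

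Averaged over both kidneys, 4 of the 14 probe sets changed between amplified and total RNA, 1 higher and 3 lower, where 20.8% of all tested probe sets were called higher and 17.6% lower. Besides Ppara and the 2 of Cpt1a given above, this was Angptl4, at -0.45 ± 0.132 (limma, adjusted p = 0.0216), lower in both kidneys (-0.37 in contralateral, -0.53 in normal). Without any 1 of several arrays, among them contralateral total replicate 1 and either normal total array, the Angptl4 call was lost, and its difference ran from -0.53 to -0.10. Between newly transcribed and amplified RNA 1 of the 14 was called, the x_at probe set of Cpt1a, where 11.9% of all were called higher and 16.7% lower. The 5 probe sets of Ppargc1a had differences of 0.59 to 1.34 there with adjusted p between 0.0792 and 0.372 (limma), since the 2 kidneys went apart as described.

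The genes most like Pdk4, Angptl4 and Ppara across arrays were looked up among 8300 genes by Pearson's r over the 10 arrays, which share 3 preparations. Closest to Pdk4 were Slc25a33 (a mitochondrial pyrimidine nucleotide carrier, 0.930), Gldc (0.907), Noct (0.906), Kif23 (0.904) and Fos (0.896). Closest to Angptl4 were Lox (lysyl oxidase, 0.945), Fga (fibrinogen α chain, 0.939), Slc19a1 (0.936), Thbd (thrombomodulin, 0.931) and Mt1 (metallothionein 1, 0.931). Closest to Ppara were Igf1r (0.980), Cmah (0.972), Ago2 (0.955), Med27 (0.950) and Cpt1a, itself one of the 8 genes, through 1460409_at (0.948), the probe set that, like Ppara, was lower in amplified than in total RNA.

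The rest of the pathway was followed in 4 lists, each gene through its brightest probe set. In total RNA limma called 0 of 12 receptors and cofactors (4 at an unadjusted p under 0.05), 0 of 23 genes of fatty acid oxidation (5 unadjusted), 0 of 16 other PPARA targets (5 unadjusted) and 0 of 8 relatives of the members (0 unadjusted). Of all tested probe sets 1.58% were called higher and 0.339% lower, so nothing is read from counts of 0 in lists this small. The median differences of the 4 lists were 0.09, 0.10, 0.04 and -0.02, against -0.02 over all tested probe sets. The nearest to the threshold were Pnpla2 (adipose triglyceride lipase, 0.64 ± 0.150, limma adjusted p = 0.058), Lpin1 (lipin 1, a phosphatidate phosphatase and coactivator, 0.50 ± 0.126, adjusted p = 0.0748) and Nrip1 (RIP140, a corepressor, 0.82 ± 0.209, adjusted p = 0.0816). Of the 23 genes of fatty acid oxidation, 18 had a positive value between 0 and 0.49 and 5 a negative one down to -0.30.

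**Figure D4:**
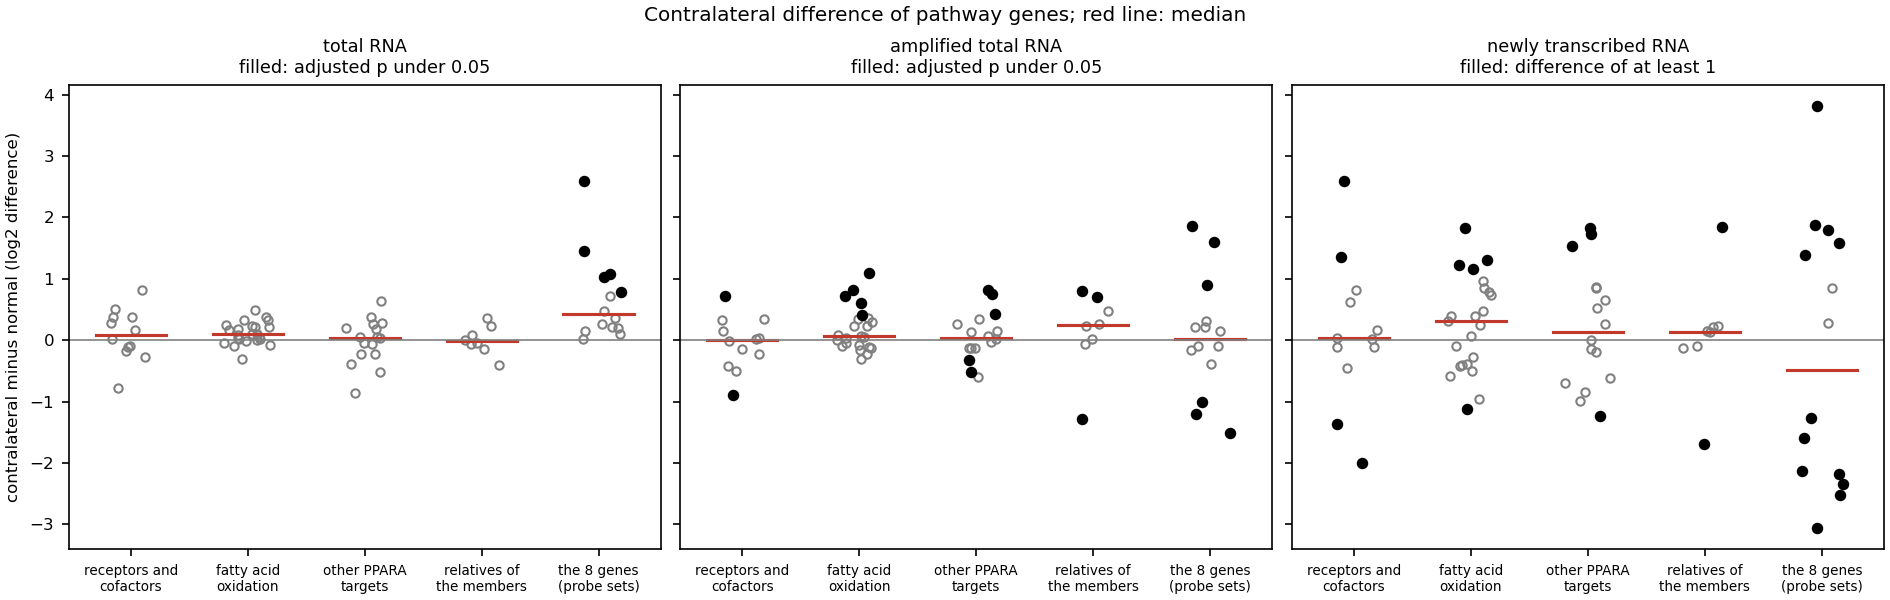
Contralateral minus normal difference (y axis, log2) of each tested gene of the 4 pathway lists and of the 14 probe sets of the 8 genes (x axis), in total, amplified total and newly transcribed RNA. Red lines are medians. Filled points passed an adjusted p of 0.05, or a difference of 1 in newly transcribed RNA. No list gene is filled in total RNA, where 1.58% of all tested probe sets were called higher and 0.339% lower. Of the 14 probe sets, which were chosen on these differences, 5 are filled there.

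In amplified RNA 5 of the 23 genes of fatty acid oxidation passed, all higher in contralateral kidneys, where 4.16% of all tested probe sets were called higher and 6.19% lower. Cpt2, which completes the import that CPT1A begins, had a level of 9.81 and 9.79 in contralateral and 8.70 and 8.70 in normal amplified RNA, a difference of 1.10 ± 0.113 (limma, adjusted p = 0.000204). Hadha, a subunit of the trifunctional protein of β-oxidation, read 8.73 and 8.83 in contralateral and 7.93 and 7.98 in normal amplified RNA, a difference of 0.83 ± 0.110 (limma, adjusted p = 0.000844). Both stood well apart between the groups. Eci2, an enoyl-CoA isomerase, differed by 0.71 ± 0.119 (adjusted p = 0.0032), Pex11a, a peroxisome proliferation factor, by 0.61 ± 0.134 (adjusted p = 0.015), and Eci1, named although outside the naming rule because it is the last of the 5, by 0.41 ± 0.112 (adjusted p = 0.0406, all limma). The other 18 did not pass, and the median of the list was 0.06 against 0.02 over all. The count of 5 fell to 3 without contralateral amplified replicate 1 or normal amplified replicate 1 and to 2 without normal amplified replicate 2. Second probe sets of Cpt2 (1447820_x_at, -0.13, not called) and Pex11a (1449442_at, -0.52, called lower) pointed the other way.

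Among the 16 other PPARA targets 3 rose and 2 fell in contralateral amplified RNA, against the same 4.16% and 6.19% of all. Plin5, a lipid droplet protein of oxidative tissue, rose by 0.81 ± 0.215 (limma, adjusted p = 0.0354), Pnpla2 by 0.75 ± 0.150 (adjusted p = 0.00905), and Acot12, a cytosolic acetyl-CoA hydrolase, by 0.42 ± 0.0994 (adjusted p = 0.0211). Deposited intensities of Acot12 overlapped, at 556.7 and 954.3 in contralateral against 577.1 and 593.3 in normal amplified RNA. Its separation thus rests on setting the arrays to a common scale. Fabp3, a fatty acid binding protein, differed by -0.51 ± 0.110 (limma, adjusted p = 0.0131), and Slc27a2, a fatty acid transporter with very-long-chain acyl-CoA synthetase activity, by -0.31 ± 0.0744 (adjusted p = 0.0213). Slc27a2 was bright on all arrays, at 12.01 and 11.98 in contralateral against 12.27 and 12.34 in normal amplified RNA. The count of 5 was 3 without contralateral amplified replicate 1 and 0 without either normal amplified array.

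Of 8 relatives of the members 2 were higher and 1 lower in contralateral amplified RNA, and of 12 receptors and cofactors 1 was higher and 1 lower, where 4.16% of all tested probe sets were called higher and 6.19% lower. Pdk2, a sister kinase of Pdk4, was higher in contralateral amplified RNA by 0.80 ± 0.147 (limma, adjusted p = 0.00619), with levels of 7.92 and 8.37 in contralateral and 7.43 and 7.26 in normal kidneys. Its deposited intensities overlapped, at 163.1 and 435 in contralateral against 168.5 and 156.1 in normal amplified RNA. The separation of Pdk2 thus rests on setting the arrays to a common scale. Plin3, a broadly expressed perilipin, was lower there by -1.29 ± 0.161 (adjusted p = 0.00059, limma), against the direction of Plin4, with 5.40 and 5.66 in contralateral and 6.81 and 6.82 in normal kidneys. Cyp4a12a, a fatty acid hydroxylase that is abundant in male mouse kidney, was higher by 0.71 ± 0.196 (limma, adjusted p = 0.0438). Its deposited intensities here were low, at 84.9 and 147.8 in contralateral against 74.4 and 68.6 in normal amplified RNA. The call of Cyp4a12a held in 13 of 20 alternatives and was lost without either contralateral or either normal amplified array. The 3 calls of relatives were 1 without normal amplified replicate 2. Among receptors and cofactors Lpin1 was higher by 0.73 ± 0.126 (limma, adjusted p = 0.00415) and Nrip1 lower by -0.89 ± 0.209 (adjusted p = 0.0207), and a second probe set of Lpin1 (1426516_a_at) was called lower, by -0.80. These 2 calls were 1 without normal amplified replicate 1 and 0 without normal amplified replicate 2.

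The contralateral effect differed between total and amplified RNA for some genes outside the 8, which were named because they passed in amplified RNA. The total effect minus the amplified effect was 1.71 ± 0.295 for Nrip1 (limma, adjusted p = 0.00716) and 1.23 ± 0.228 for Plin3 (adjusted p = 0.0106), with the effect in total RNA above that in amplified RNA. In total RNA alone the difference was 0.82 for Nrip1 and -0.06 for Plin3. The total effect minus the amplified effect was -0.76 ± 0.159 for Cpt2 (limma, adjusted p = 0.0192) and -0.82 ± 0.155 for Hadha (adjusted p = 0.0116). In both the effect in amplified RNA stood above that in total RNA. These 4 were 1 of 12 receptors and cofactors, 2 of 23 oxidation genes, 0 of 16 other PPARA targets and 1 of 8 relatives. Of all tested probe sets 3.81% passed with a positive and 0.648% with a negative value. Second probe sets of Nrip1 (1418469_at, 0.97) and Cpt2 (1447820_x_at, -0.13) had the same sign and were not called. Nrip1 passed with any 1 array left out. The call of Cpt2 was lost without contralateral total replicate 2, normal total replicate 1 or either normal amplified array, that of Hadha without contralateral total replicate 1, normal total replicate 2 or either normal amplified array, and that of Plin3 without normal total replicate 2 or either normal amplified array.

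Newly transcribed arrays had 4 of the 23 genes of fatty acid oxidation past a difference of 1 as higher in the contralateral kidney (Acaa1a 1.82, Eci1 1.30, Eci2 1.22 and Cpt2 1.16) and 1 as lower (Etfb, -1.13), where 14.3% of all tested probe sets were past it as higher and 18.5% as lower. The 16 other PPARA targets had 3 higher (Pnpla2 1.83, the lipase Lipe 1.73 and the thioesterase Acot1 1.54) and Vnn1 lower, at -1.24. Lipe and Pnpla2 are lipases that fat cells also express. Most markers of fat cells were higher on the contralateral newly transcribed array as given above, and their part in these differences was not tested. Among the 12 receptors and cofactors Rxrb, a partner receptor of PPARA, was at 2.59 and the PGC-1-related Pprc1 at 1.35, while Nrip1 was at -2.00 and Sirt1 at -1.37. These shares lie near or below those of all probe sets. Each value rests on 1 array per kidney, and these genes were named because they passed that fold. Deposited intensities were lower on the contralateral array for Cpt2 (306.2 against 540.7), Eci2 (277 against 475.3) and Pnpla2 (188.7 against 206.8). The positive differences of Cpt2, Eci2 and Pnpla2 thus rest on setting the arrays to a common scale.

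In newly transcribed against amplified RNA 16 of the 23 genes of fatty acid oxidation fell and the other 7 did not pass, with a median of -0.81 against -0.01 over all tested probe sets, of which 16.7% were called lower and 11.9% higher. Hadha, at -1.41 ± 0.219 (limma, adjusted p = 0.00145), and the electron carrier dehydrogenase Etfdh, at -1.38 ± 0.186 (adjusted p = 0.000771), led them. Of the 12 receptors and cofactors 6 rose and the other 6 did not pass, with a median of 0.82, among them Ppargc1b, the sister of Ppargc1a, at 1.07 ± 0.186 (limma, adjusted p = 0.0025), and Med1, a mediator subunit, at 0.99 ± 0.178 (adjusted p = 0.00302). In amplified against total RNA 9 of the 23 oxidation genes rose and 3 fell, with a median of 0.33, and of the 12 receptors and cofactors 1 rose and 1 fell, with a median of -0.11. Over all tested probe sets 20.8% were called higher and 17.6% lower there, with a median of 0.04. Array brightness and 3' bias moved with preparation throughout, and their part was not tested.

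**Figure D5:**
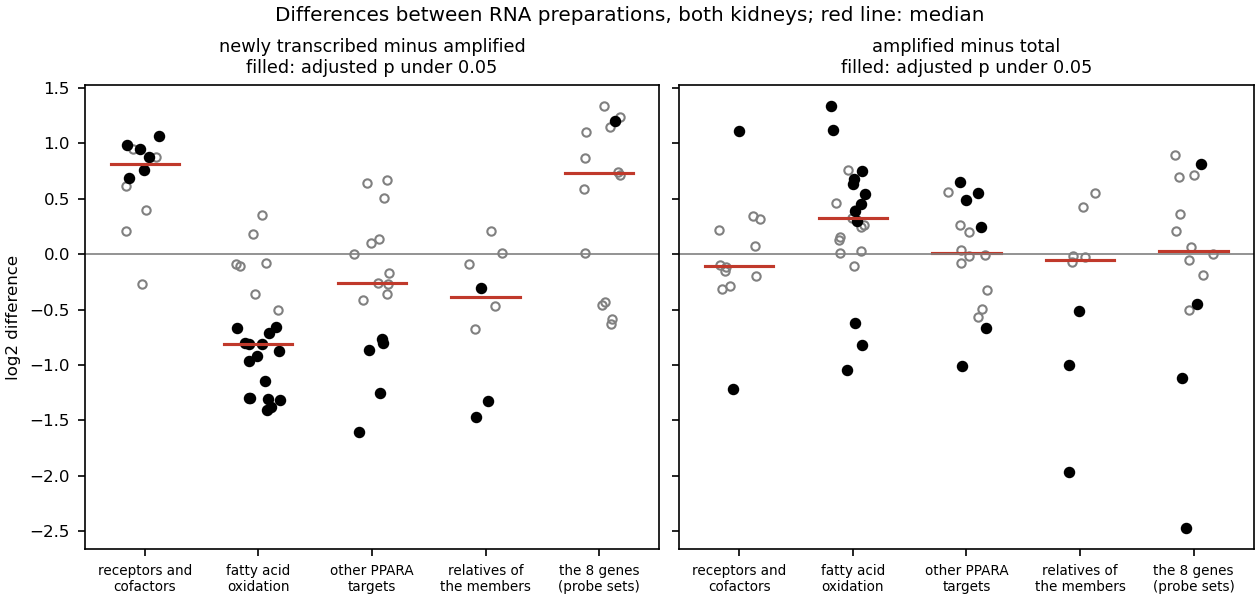
Difference between preparations, averaged over both kidneys (y axis, log2), for each tested gene of the 4 lists and the 14 probe sets of the 8 genes (x axis). The left panel is newly transcribed minus amplified RNA and the right panel amplified minus total RNA, red lines are medians, and filled points passed an adjusted p of 0.05. The oxidation genes lie at a median of -0.81 and the receptors and cofactors at 0.82 in the left panel.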

How the data were processed

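Signals of 10 one-colour Affymetrix arrays were used, for each kidney 2 of total, 2 of amplified total and 1 of newly transcribed RNA. The authors deposited 1 linear signal intensity per probe set and array. The labels' protocols describe linear amplification and T7 biotin labelling, and name no summary algorithm, scaling or detection call. Values were turned into log2(intensity + 11.8), the 25th percentile of all values, and quantile normalized. Of 22690 probe sets 64 controls were dropped, and 13575 with a mean above the 40th percentile were kept for testing. Symbols came from the platform annotation.

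Models were fitted with limma 3.58.1 under R 4.3.3 (lmFit and trended eBayes), with Benjamini-Hochberg adjustment at 0.05 over all 13575. Kidney contrasts came from 6 group means (4 residual degrees of freedom), and preparation contrasts from a model adding kidney and preparation (6 degrees of freedom). With 1 newly transcribed array per kidney no test was made, and a log2 difference of at least 1 counted as past the fold. The number of arrays limits the precision, and p-values measure the spread between these arrays. The fits were tested on simulated data. Alternatives were other constants, filters, scalings, variance models, a replicate block and leaving out each array.

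The members and the gene lists were chosen with earlier results of these data known. All member probe sets are named, and of each list up to 4 genes per direction among those that passed in total or amplified RNA. Genes past the fold in newly transcribed RNA, and those nearest the threshold in total RNA, were named after their values were seen.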

Additional observations from a re-analysis of the deposited data

Results flagged for a closer look

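The contralateral effect in total RNA minus that in amplified RNA was computed for each probe set. It was past the threshold for 7 among the probe sets of the 8 genes and the brightest ones of the named list genes. Of all tested probe sets 3.81% passed with a positive and 0.648% with a negative value. For the 8 genes the difference is a description, since both effects chose them. It was 2.04 for Ppara, 1.68 for Ppargc1a 1456395_at and 2.30 for Ppargc1a 1460336_at, where contralateral kidneys were higher in total RNA and lower in amplified RNA. It was 1.71 for Nrip1, with the same order, and 1.23 for Plin3, which was lower in contralateral amplified RNA and differed by -0.06 in total RNA. It was -0.76 for Cpt2 and -0.82 for Hadha, where the contralateral minus normal difference was larger in amplified than in total RNA. For Pex11a, the second probe set 1449442_at gave 1.04 and passed as well, against its brighter probe set, which did not pass.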

How the results depend on the processing

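The counts of calls and the differences of the named genes were recomputed under other constants (1 and 50), filters (none, or a mean above the 60th percentile), scalings (a common median, or quantiles within each preparation), no variance trend, fewer arrays, a replicate block and each array left out, and, added after seeing the data, without both newly transcribed arrays. Over all tested probe sets the calls for contralateral minus normal, total RNA, numbered 260, 85 without a filter and 145 without a trend, and 48 to 380 with an array left out. For amplified total RNA they numbered 1405, and 510 to 1418 with an array left out. On the newly transcribed arrays 4452 were past the fold, 2794 with the constant 50, and 4409 to 4496 with an array left out. The total minus amplified difference was called for 605, for 403 without a filter and for 271 to 693 with an array left out. Amplified minus total RNA gave 5218 calls, 8486 with 6 group means and 4024 to 7919 with an array left out. Newly transcribed minus amplified RNA gave 3884 calls, 7511 with 6 group means and 2801 to 6722 with an array left out. Among the 14 member probe sets, the calls in total RNA were 5, 2 without a filter and 1 to 6 with an array left out. In amplified RNA they were 6, and 4 to 6. For the total minus amplified difference they were 3, and 3 to 4, and for amplified minus total RNA 4, 10 with 6 group means and 2 to 9. For newly transcribed minus amplified RNA the 1 call was 0 without a filter, 2 with the higher filter, 3 with quantiles within preparations, 12 with 6 group means and 0 to 8 with an array left out.

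Among the lists in amplified RNA, the 2 calls of receptors and cofactors were 1 without a filter, 1 with the higher filter and 0 to 2 with an array left out. The 5 of fatty acid oxidation were 2 to 5, and the 3 of the relatives 1 to 3. The 5 of other PPARA targets were 3 without a filter, 3 without a trend, 2 with the 4 amplified arrays alone and 0 to 5 with an array left out. In total RNA, other PPARA targets had 0 calls, 1 with the constant 50, 1 with genes as the mean of their probe sets and 0 to 1 with an array left out, oxidation 0 to 1, receptors and cofactors 0 to 2. On the newly transcribed arrays the 4 receptors and cofactors past the fold were 2 with the constant 50 and 1 with the higher filter, and 4 with any array left out, while oxidation held at 5 and other PPARA targets at 4 to 5. For the total minus amplified difference, the 2 calls of oxidation were 1 without a trend and 0 to 2 with an array left out, the 1 of receptors and cofactors 0 with the higher filter, 2 with a common median and 1 to 2, the 1 of the relatives 0 to 2, and the 0 of other PPARA targets 1 with genes as the mean of their probe sets and 0 to 1. For amplified minus total RNA, the 2 calls of receptors and cofactors were 6 with 6 group means, 5 with genes as the mean of their probe sets and 2 to 6, and the 12 of oxidation 8 to 18. For newly transcribed minus amplified RNA, the 6 of receptors and cofactors were 10 with 6 group means and 5 to 8, and the 16 of oxidation 14 to 17. Signs of values that passed no test in total RNA turned with an array left out: Slc27a2 ran from -0.0124 (without contralateral total replicate 1) to 0.0836, Hadha from -0.00673 (without contralateral total replicate 2) to 0.023, Plin3 from -0.154 to 0.0385 (without normal total replicate 1), Eci1 from -0.0788 (without contralateral total replicate 1; -0.018 without normal total replicate 2) to 0.117, and Cyp4a12a from -0.348 to 0.0771 (without contralateral total replicate 1). The cause of these shifts was not tested.

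Whether same-numbered arrays share more than a number, such as a mouse, is not settled by the labels. Their deviations from the group means correlated between -0.0701 and 0.0998 over 13575 probe sets. Total with amplified RNA gave 0.0998 in contralateral and 0.0971 in normal kidneys, and pairs of different kidneys gave -0.0701 to 0.0417. Noise of single arrays enters these deviations, so such low values cannot exclude a shared mouse. With the number as a replicate block the member calls were 6 in total RNA, 6 in amplified RNA, 3 for the total minus amplified difference, 3 for amplified minus total and 0 for newly transcribed minus amplified RNA, and all tested probe sets called in total RNA numbered 277.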
